A study of Homo sapiens with 6 samples.

Results

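The SLC25 family is a family of carriers, most of which move metabolites across the inner mitochondrial membrane. Its members were taken as the protein-coding rows of the deposited gene table whose gene name begins with SLC25A, which gave 48 genes of 58735. RNA sequencing was run on SKOV3ip1 cells, an established human cell line of ovarian adenocarcinoma. One group of 3 libraries came from cells collected 48 h after transfection with 2 µg of BARD1 siRNA, and the other group of 3 came from cells given the same amount of control siRNA for the same time. The labels record both groups as wild type in genotype and all 6 libraries come from a single cell line, and the siRNA sequences are not known here. The labels name the tissue as tumours, while their titles and protocols describe cultured cells. The labels call the replicates biological, without saying whether they were transfected on separate days, so the p-values cover only how far these cultures varied.

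Carriers of this family are built from repeats of a paired-helix module and work as exchangers or co-importers. They supply the matrix with ADP, phosphate, nucleotides, cofactors, iron, amino acids and organic acids, and return ATP, citrate and other products to the cytosol. Several substrates are served by paralogs that differ in tissue distribution and in regulation by calcium. Their abundance therefore bears on respiration, on the shuttles that move reducing equivalents, and on biosynthesis in tumour cells.

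Libraries held 16661374 to 17743404 counts with BARD1 siRNA and 16621108 to 17704645 with control siRNA, and the replicate coefficient of variation was 7.19%. BARD1, the binding partner of BRCA1 and the target of the siRNA, measured 5.91, 6.52 and 9.71 normalised CPM (read counts scaled to a common library size) in the BARD1 siRNA libraries, against 45.8, 37.8 and 49.2 CPM in the control siRNA libraries (log2 fold change -2.58, SE 0.14, edgeR adjusted p = 1.21e-15). Of 9 epithelial and ovarian carcinoma markers, 2 were higher, 4 were lower and WT1 was too low to test. PAX8 and KRT18 were higher, at log2 fold changes of 0.75 and 0.40. KRT7, KRT19, EPCAM and ERBB2 were lower, at -0.98, -0.60, -0.24 and -0.14. The 9 summed to 4405 to 4519 CPM with BARD1 siRNA and 4306 to 4702 CPM with control siRNA. ERBB2 and KRT8 held most of that sum, at means of 1911 and 1276 CPM with BARD1 siRNA and 2100 and 1232 CPM with control siRNA. Of the leukocyte markers given here, PTPRC, CD3E and CD68 were at 0 in every library. CD14 had 2 counts over the BARD1 siRNA and 2 over the control siRNA libraries. The 4 endothelial markers summed to 0.800 to 1.30 CPM with BARD1 siRNA and 0.646 to 0.968 CPM with control siRNA. The 5 fibroblast markers summed to 16.5 to 21.6 CPM with BARD1 siRNA and 25.7 to 26.3 CPM with control siRNA, with COL3A1 lower. Mitochondrially encoded transcripts took 4.93% to 5.15% of counts with BARD1 siRNA and 5.23% to 5.73% with control siRNA, and the part of these shifts in the results on carriers was not tested.

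More carriers fell than rose with BARD1 siRNA, and the changes were small. Of the 48 members, 41 passed the filter on low counts, and 7 of these rose while 14 fell at an edgeR quasi-likelihood adjusted p under 0.05, with the adjustment run over all 15271 tested genes. Over all tested genes 42.3% were called, 22.0% higher and 20.3% lower, and over tested protein-coding genes 47.1% were called, 24.3% higher and 22.8% lower. Among the tested carriers 17.1% rose and 34.1% fell. Their median log2 fold change was -0.19, beside -0.01 for all tested genes. With upper-quartile factors 5 carriers rose and 15 fell, and the share of higher genes among all called genes was 41.5%, against 51.9% with the factors used here. No called member changed 2-fold, where 981 of all 15271 tested genes were called with a change of at least 2-fold. The range of called changes ran from a 1.73-fold reduction for SLC25A35 to a 1.59-fold increase for SLC25A25. All 3 BARD1 siRNA libraries lay above all 3 control siRNA libraries for 7 tested members and below them for 18, where 25.8% and 24.7% of all tested genes did so, 50.4% in either direction. In bulk RNA a change in the number of cells that carry a transcript and a change in the amount per cell cannot be told apart.

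**Figure D1:**
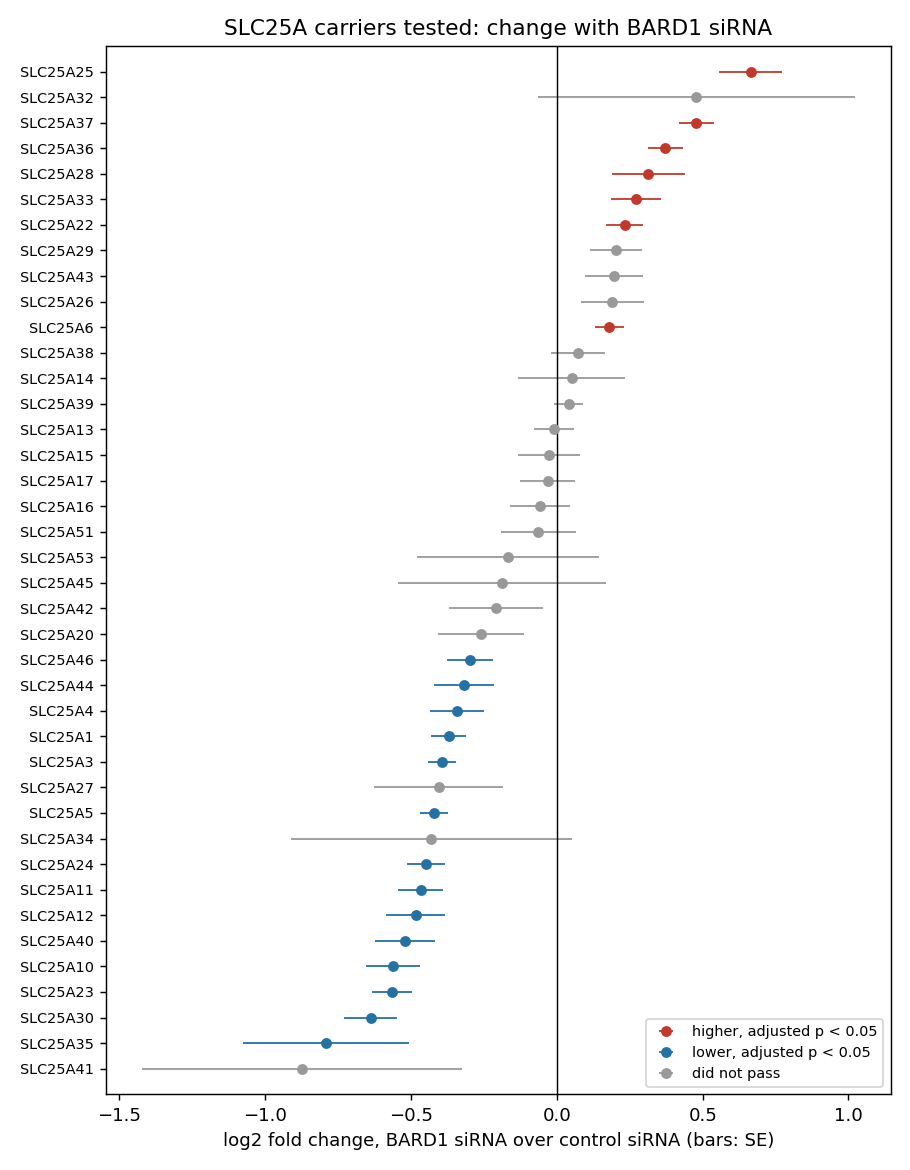
Log2 fold change (BARD1 siRNA over control siRNA, horizontal axis, with SE bars) for 40 of the 41 tested SLC25A carriers, ordered from highest to lowest. Red points mark the 7 that rose, blue points the 14 that fell, and grey points 19 of those that did not pass an adjusted p of 0.05.

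Levels of different genes were compared per length, as TPM computed from the counts and the deposited length of each gene's exons. TPM leaves out the scaling factors of the test, 0.977 to 0.982 with BARD1 siRNA and 1.017 to 1.026 with control siRNA. Differences between groups in TPM are therefore not on the scale of the tested fold changes. The summed level of the family was 2919, 2855 and 2834 TPM in the BARD1 siRNA libraries, against 3266, 3376 and 3232 TPM in the control siRNA libraries. The groups did not overlap. The 6 most abundant carriers, SLC25A5, SLC25A6, SLC25A39, SLC25A1, SLC25A3 and SLC25A11, made up 72.1% ± 0.70 of the family's level with BARD1 siRNA and 73.7% ± 0.65 with control siRNA (SD, n = 3 each). Of these, 4 fell, SLC25A6 rose and SLC25A39 did not pass. The order within the top depends on the length used, because the deposited length counts every annotated exon. In control siRNA cells SLC25A5 came first at 925 TPM and SLC25A3 stood at 235 TPM, whereas with the length of 1 principal transcript per gene SLC25A3 came first at 809 TPM and SLC25A5 stood at 708 TPM.

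**Figure D2:**
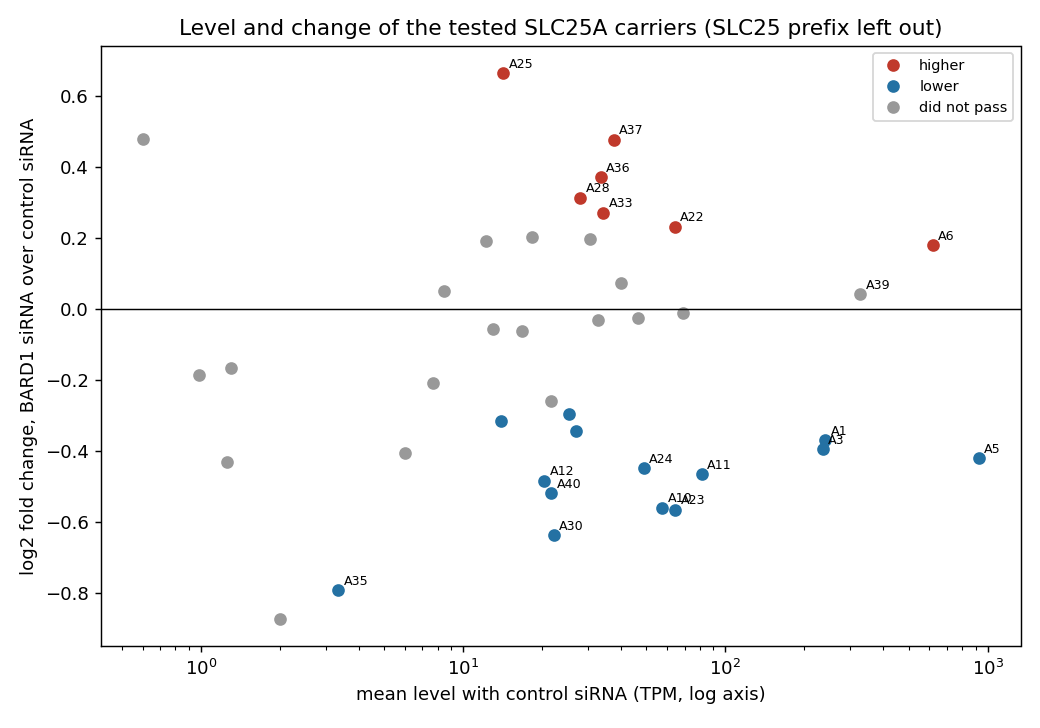
Mean level with control siRNA (TPM, log axis, horizontal) against the log2 fold change of BARD1 siRNA over control siRNA (vertical) for 40 of the 41 tested carriers, coloured by call. The most abundant gene, SLC25A5, lies among those that fell, and SLC25A6, the next in level, among those that rose.

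ADP/ATP carriers exchange cytosolic ADP for matrix ATP, and their 2 abundant paralogs moved in opposite directions. SLC25A5 (ENSG00000005022, GRCh38 chromosome X, 119468400 to 119471319, plus strand), the form common in proliferating cells, measured 296, 281 and 286 CPM in the BARD1 siRNA libraries, against 387, 382 and 387 CPM in the control siRNA libraries. Every BARD1 siRNA library lay below every control siRNA library, with a log2 fold change of -0.42 and an SE of 0.05, or 1.34-fold lower (edgeR adjusted p = 1.76e-10). SLC25A5 shares 227 exon bases, 15.1% of its exon length, with the antisense gene SLC25A5-AS1, which did not pass (log2 fold change -0.66, edgeR adjusted p = 0.315). SLC25A6 (ENSG00000169100, chromosome X, 1386152 to 1392724, minus strand), a widely expressed paralog, measured 446, 411 and 405 CPM with BARD1 siRNA and 367, 395 and 352 CPM with control siRNA. The groups came close without overlapping, a 1.13-fold increase (log2 fold change 0.18 with an SE of 0.05, edgeR adjusted p = 0.00281). The call for SLC25A6 was lost with upper-quartile factors, at an edgeR adjusted p of 0.0644, and without BARD1 siRNA replicate 1, at 0.0709. SLC25A4, the form of heart and skeletal muscle, fell to 28.5 ± 0.81 CPM with BARD1 siRNA, against 36.2 ± 1.77 CPM with control siRNA (SD, n = 3 each, edgeR adjusted p = 0.00177). SLC25A31, the germ-cell form, had 1 count over the BARD1 siRNA and 0 over the control siRNA libraries.

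Within the summed level of the ADP/ATP carriers, SLC25A6 accounted for 50.4%, 49.6% and 48.7% in the BARD1 siRNA libraries, against 38.9%, 41.1% and 38.0% in the control siRNA libraries. SLC25A5 accounted for 48.9% ± 0.73 with BARD1 siRNA and 58.9% ± 1.60 with control siRNA (SD, n = 3 each). With BARD1 siRNA the paralogs were thus about level on the scale of the deposited length. With the principal transcript length SLC25A5 remained the larger, at 51.8% with BARD1 siRNA and 61.7% with control siRNA. The summed level of the ADP/ATP carriers was 1358 ± 54.4 TPM with BARD1 siRNA and 1570 ± 29.8 TPM with control siRNA (SD, n = 3 each), with no overlap.

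Carriers of ATP-Mg and phosphate, which set the size of the matrix adenine nucleotide pool and some of which are switched on by cytosolic calcium, also split. SLC25A25 (ENSG00000148339, chromosome 9, 128068201 to 128109245, plus strand) had the largest called increase of the family. It measured 32.9, 27.7 and 32.2 CPM with BARD1 siRNA and 20.9, 21.3 and 16.3 CPM with control siRNA (log2 fold change 0.67, SE 0.11, edgeR adjusted p = 1.02e-06). All BARD1 siRNA libraries were above all control siRNA libraries. Its exons share 665 bases, 13.5% of its exon length, with the antisense gene SLC25A25-AS1, which did not pass (log2 fold change 0.38, edgeR adjusted p = 0.116). No source used here states the strand setting of the counting, so reads there cannot be assigned with certainty.

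SLC25A23 (ENSG00000125648, chromosome 19, 6436079 to 6465203, minus strand) measured 61.1, 59.5 and 55.6 CPM with BARD1 siRNA, against 81.9, 91.4 and 87.5 CPM with control siRNA (log2 fold change -0.57, SE 0.07, edgeR adjusted p = 7.93e-10). SLC25A24 (ENSG00000085491, chromosome 1, 108134036 to 108200849, minus strand) measured 67.5, 69.1 and 64.1 CPM with BARD1 siRNA and 87.3, 93.7 and 93.1 CPM with control siRNA (log2 fold change -0.45, SE 0.07, edgeR adjusted p = 9.56e-08). Neither gene's groups overlapped. SLC25A41, the related gene 2.30 kb from SLC25A23, had only 25 counts over the BARD1 siRNA and 48 over the control siRNA libraries and did not pass (log2 fold change -0.87 with an SE of 0.55, edgeR adjusted p = 0.205). The share of SLC25A25 in the summed level of these 4 paralogs was 21.9% ± 1.93 with BARD1 siRNA and 11.0% ± 1.57 with control siRNA, and that of SLC25A23 was 42.3% ± 1.03 with BARD1 siRNA and 49.7% ± 0.73 with control siRNA (SD, n = 3 each). The summed level itself was 99.0 ± 3.43 TPM with BARD1 siRNA and 129.5 ± 6.24 TPM with control siRNA.

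**Figure D3:**
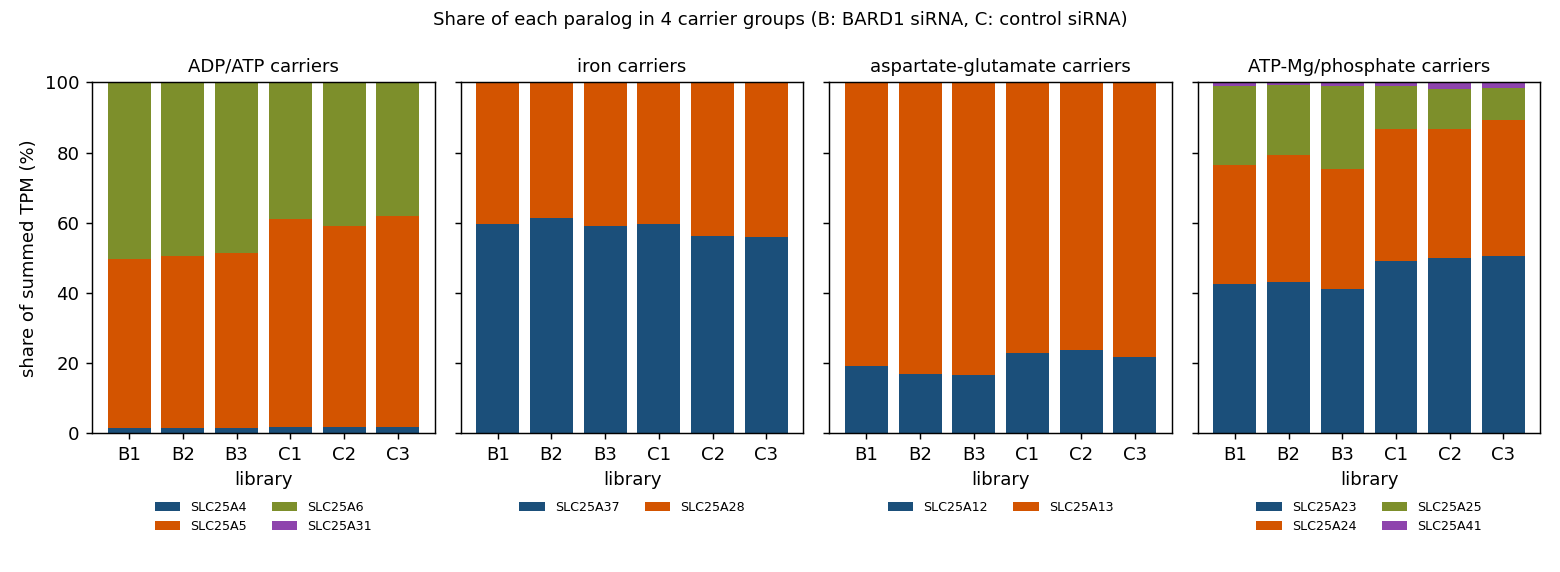
Share of each paralog in the summed TPM of its carrier group (vertical axis, percent) for the 3 BARD1 siRNA libraries (B1 to B3) and the 3 control siRNA libraries (C1 to C3). SLC25A6 took 48.7% to 50.4% of the ADP/ATP carriers with BARD1 siRNA and 38.0% to 41.1% with control siRNA, and the share of SLC25A25 among the ATP-Mg/phosphate carriers was likewise larger in each BARD1 siRNA library.

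Carriers of nucleotides and cofactors had 2 higher and 0 lower of 10 tested, a share of higher calls close to the 22.0% of all tested genes. The pair that rose are the pyrimidine nucleotide carriers, which feed mitochondrial DNA and RNA synthesis. SLC25A36 (ENSG00000114120, chromosome 3, 140941830 to 140980961, plus strand) measured 117, 129 and 126 CPM with BARD1 siRNA and 97.0, 92.2 and 98.0 CPM with control siRNA (log2 fold change 0.37, SE 0.06, edgeR adjusted p = 8.52e-07). SLC25A33 (ENSG00000171612, chromosome 1, 9539482 to 9585179, plus strand) measured 40.0, 44.9 and 47.6 CPM with BARD1 siRNA and 36.7, 35.6 and 37.6 CPM with control siRNA. It passed at an edgeR adjusted p of 0.00838 (log2 fold change 0.27, SE 0.09) but not without BARD1 siRNA replicate 3, at 0.0856. The other 8 did not pass, and those given here had log2 fold changes from -0.21 for the coenzyme A carrier SLC25A42 to 0.48 for the folate and FAD carrier SLC25A32. They include the NAD carrier SLC25A51 at -0.06 and the S-adenosylmethionine carrier SLC25A26 at 0.19.

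The promoters of SLC25A25, SLC25A36 and SLC25A33 are shown because they shared a motif that was found in no other member's promoter. RefSeq (GRCh38.p14) gave promoters, from 250 bases before to 50 after a start, for 40 of the 48 members. They were searched on both strands for 5 motifs, with the calls already known. The palindrome TGACGTCA, the cyclic AMP response element, was in promoters of 3 of the 6 members that rose and have a promoter, and in 0 of the 12 that fell, 0 of the 16 that did not pass and 0 of the 6 that were not tested. It was in promoters of 2.25% of all 27305 genes with a promoter and of 3.72% of the 10569 tested genes that have one. Of the 393 tested genes with this motif 25.7% were called higher and 18.1% lower, near the 22.0% and 20.3% of all tested genes. The latter shares include tested genes without a promoter here, and those of tested genes with a promoter were not computed. Below, capitals mark the motif, and in SLC25A36 and SLC25A33 also an E-box, CACGTG, that does not overlap it.
SLC25A25, chr9:128098257-128098556, plus strand: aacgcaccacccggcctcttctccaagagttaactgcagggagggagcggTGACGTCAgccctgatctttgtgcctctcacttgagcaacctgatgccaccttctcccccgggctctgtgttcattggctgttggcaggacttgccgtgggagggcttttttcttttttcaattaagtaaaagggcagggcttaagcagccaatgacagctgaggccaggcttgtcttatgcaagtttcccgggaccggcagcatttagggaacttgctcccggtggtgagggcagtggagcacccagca
SLC25A36, chr3:140941586-140941885, plus strand: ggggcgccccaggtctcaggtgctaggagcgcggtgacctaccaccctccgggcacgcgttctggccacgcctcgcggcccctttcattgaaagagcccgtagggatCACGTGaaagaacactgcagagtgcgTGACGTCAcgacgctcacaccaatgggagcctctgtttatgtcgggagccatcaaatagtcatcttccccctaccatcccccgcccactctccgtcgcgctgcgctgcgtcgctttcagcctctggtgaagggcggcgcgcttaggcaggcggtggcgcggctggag
SLC25A33, chr1:9539215-9539514, plus strand: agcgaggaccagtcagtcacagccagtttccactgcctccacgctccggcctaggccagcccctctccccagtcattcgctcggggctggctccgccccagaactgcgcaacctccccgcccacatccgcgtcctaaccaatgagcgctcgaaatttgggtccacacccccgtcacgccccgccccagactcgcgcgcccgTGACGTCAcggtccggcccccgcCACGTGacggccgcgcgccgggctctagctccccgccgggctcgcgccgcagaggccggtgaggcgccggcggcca

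The response element lies at positions -200 to -193 from the start in SLC25A25, -117 to -110 in SLC25A36 and -49 to -42 in SLC25A33. SLC25A25 has 3 listed promoters, and the other 2 hold none of the motifs. Which of its starts was used cannot be read from gene counts. A match describes these letters and is no evidence of binding. The E-box was in promoters of 9 of the 40 members, 22.5%, against 8.77% of all 27305 genes with a promoter and 12.4% of the tested ones. By call, it was in promoters of 3 of the 6 members that rose and 1 of the 12 that fell. It was also in those of 4 of the 16 that did not pass and 1 of the 6 not tested.

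The group of phosphate, dicarboxylate and tricarboxylate carriers had 5 lower and 0 higher of 6 tested. Among all tested genes 20.3% were lower and 22.0% higher. The group's median log2 fold change was -0.45, beside -0.01 for all tested genes. The 6 include SLC25A35, which has no agreed substrate, and its close relative SLC25A34. SLC25A3 (ENSG00000075415, chromosome 12, 98593591 to 98606379, plus strand), which imports the phosphate used for ATP synthesis and also copper, measured 449.8, 452 and 422 CPM with BARD1 siRNA and 579, 611 and 552 CPM with control siRNA. The groups were well apart (log2 fold change -0.39, SE 0.05, edgeR adjusted p = 1.10e-09). SLC25A1 (ENSG00000100075, chromosome 22, 19175575 to 19178830, minus strand), which exports citrate for lipid synthesis, measured 106, 113 and 107 CPM with BARD1 siRNA and 141, 151 and 129 CPM with control siRNA, a 1.29-fold reduction (edgeR adjusted p = 8.85e-07). SLC25A10 (ENSG00000183048, chromosome 17, 81712236 to 81721016, plus strand), the dicarboxylate carrier, measured 25.1, 29.1 and 30.8 CPM with BARD1 siRNA and 41.5, 44.7 and 39.2 CPM with control siRNA, a 1.47-fold reduction (edgeR adjusted p = 1.43e-06).

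SLC25A11 (ENSG00000108528, chromosome 17, 4937130 to 4940251, minus strand), which exchanges 2-oxoglutarate for malate, measured 41.5, 45.6 and 43.7 CPM with BARD1 siRNA, against 61.9, 59.1 and 59.7 CPM with control siRNA (log2 fold change -0.47, SE 0.08, edgeR adjusted p = 1.35e-06). No BARD1 siRNA library of these 4 genes reached the lowest control siRNA library. SLC25A11 shares 244 exon bases, 9.14% of its exon length, with RNF167 on the other strand, which did not pass (log2 fold change -0.13, edgeR adjusted p = 0.239). SLC25A35, a carrier with no agreed substrate, measured 2.40, 1.95 and 1.90 CPM with BARD1 siRNA and 3.42, 3.70 and 3.72 CPM with control siRNA. Its log2 fold change of -0.79 (SE 0.28, edgeR adjusted p = 0.0206) was the lowest among called members and rests on 105 counts over the BARD1 siRNA and 190 over the control siRNA libraries. It did not pass without BARD1 siRNA replicate 2, at 0.0556, or replicate 3, at 0.0657, and it shares 33.2% of its exon bases with RANGRF on the other strand. SLC25A34, a close relative, had 42 counts with BARD1 siRNA and 59 with control siRNA and did not pass, at a log2 fold change of -0.43.

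The promoters of SLC25A3 and SLC25A11 are given as the members that fell with a site for the transcription factor NRF1, written GCGC, any base and then TGCGC, and a known regulator of mitochondrial genes. It was in promoters of 2 of the 12 members that fell and have a promoter, 0 of the 6 that rose, 1 of the 16 that did not pass and 2 of the 6 not tested. It was in promoters of 13.1% of tested genes with a promoter. Of those tested genes 22.2% were called higher and 26.9% lower. Capitals mark the NRF1 site, and in SLC25A11 also a match to TGATGNAA, the core of the composite C/EBP and ATF site, on the other strand.
SLC25A3, chr12:98593436-98593735, plus strand: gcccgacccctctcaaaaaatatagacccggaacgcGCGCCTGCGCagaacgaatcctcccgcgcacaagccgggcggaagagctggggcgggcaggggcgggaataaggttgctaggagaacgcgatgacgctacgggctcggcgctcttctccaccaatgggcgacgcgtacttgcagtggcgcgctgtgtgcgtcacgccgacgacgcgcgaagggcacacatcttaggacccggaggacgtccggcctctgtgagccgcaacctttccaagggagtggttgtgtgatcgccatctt
SLC25A11, chr17:4939997-4940296, minus strand: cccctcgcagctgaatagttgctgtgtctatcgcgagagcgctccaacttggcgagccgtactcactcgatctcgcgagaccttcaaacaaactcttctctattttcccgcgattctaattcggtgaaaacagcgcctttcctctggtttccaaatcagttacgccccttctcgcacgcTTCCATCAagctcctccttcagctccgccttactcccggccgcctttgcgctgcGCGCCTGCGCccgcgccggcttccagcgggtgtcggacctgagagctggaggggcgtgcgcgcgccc

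The core TGATGNAA was in the promoter of 1 of the 40 members and of 2.59% of tested genes with a promoter. The site AAGGTCA of estrogen-related receptors was in the promoter of 1 member, SLC25A34, and of 3.58% of tested genes with a promoter.

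**Figure D4:**
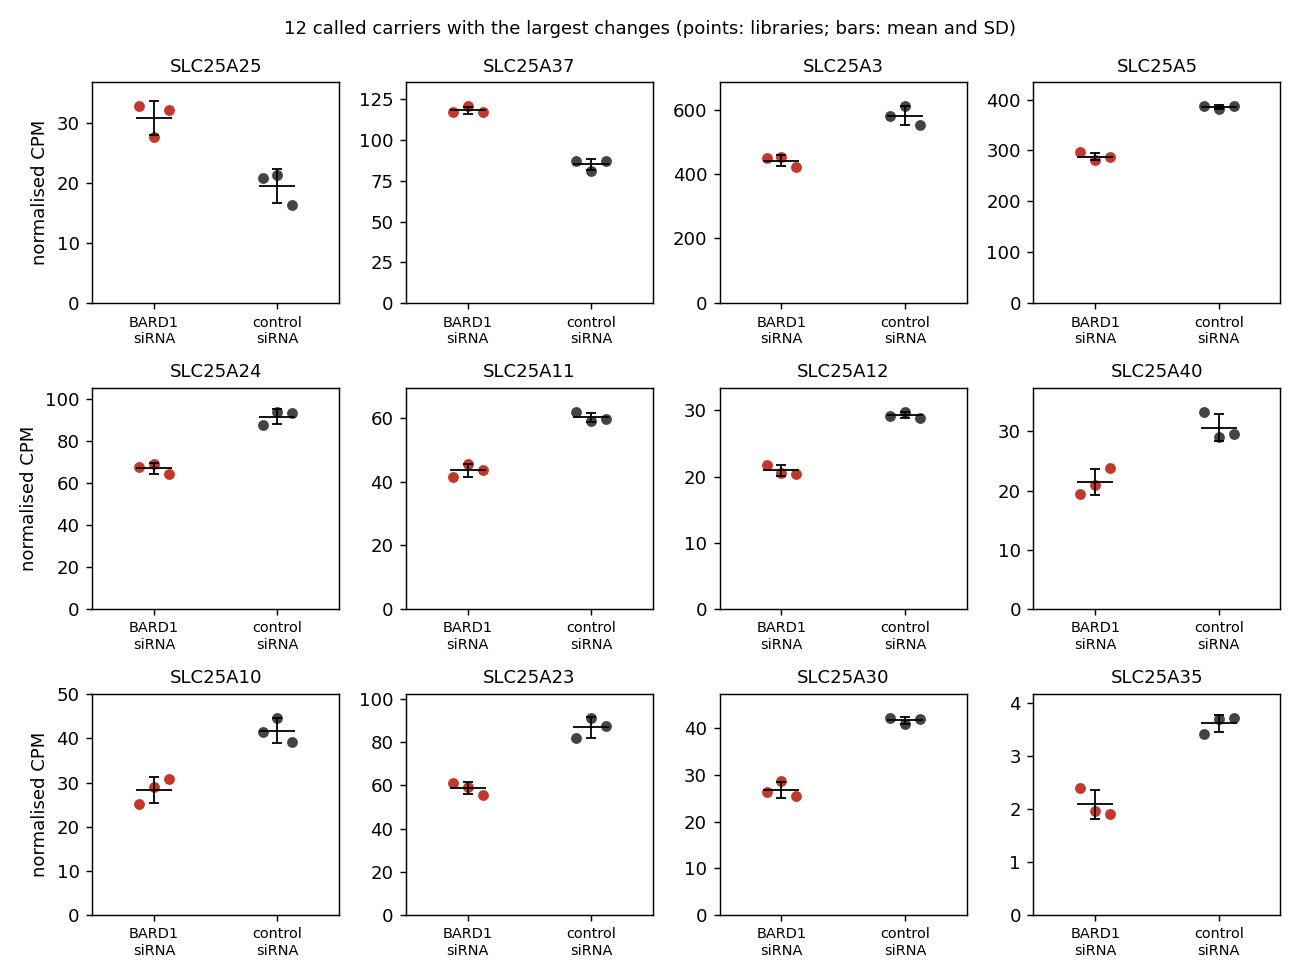
Normalised CPM (vertical axis, from 0) in each of the 3 BARD1 siRNA and 3 control siRNA libraries for the 12 called carriers with the largest changes, with the mean and SD as bars. The groups do not overlap in any of the 12 panels, and SLC25A25 and SLC25A37 are the pair in which BARD1 siRNA is the higher group.

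Carriers of amino acids, acylcarnitine and glutathione had 1 higher and 3 lower of 11 tested, beside 22.0% higher and 20.3% lower among all tested genes, with a median log2 fold change of -0.03. The aspartate-glutamate carriers run the malate-aspartate shuttle. Of this pair SLC25A12 fell and SLC25A13 did not pass. SLC25A12 (ENSG00000115840, chromosome 2, 171784370 to 171999859, minus strand) measured 21.8, 20.5 and 20.5 CPM with BARD1 siRNA and 29.1, 29.8 and 28.8 CPM with control siRNA, with no overlap (log2 fold change -0.48, SE 0.10, edgeR adjusted p = 7.19e-05). SLC25A13, its more abundant paralog, measured 66.2, 72.0 and 74.3 CPM with BARD1 siRNA and 70.9, 69.2 and 74.0 CPM with control siRNA, with the groups overlapping (log2 fold change -0.01, SE 0.07). SLC25A12 made up 17.5% ± 1.39 of their summed level with BARD1 siRNA and 22.8% ± 0.87 with control siRNA (SD, n = 3 each), with no overlap between groups.

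The gene body of SLC25A12 overlaps HAT1 on the other strand, but they share 0 exon bases. HAT1 had the higher mean count, 1610 per library against 432.5. It also fell (log2 fold change -0.41, edgeR adjusted p = 4.88e-07), and the part of its reads in the change of SLC25A12 was not tested. SLC25A12 shares 181 exon bases, 3.50% of its exon length, with METAP1D, which did not pass (log2 fold change -0.25, edgeR adjusted p = 0.197).

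SLC25A22, the main glutamate importer, measured 99.6, 96.7 and 94.9 CPM with BARD1 siRNA and 80.6, 88.2 and 79.0 CPM with control siRNA (log2 fold change 0.23, SE 0.06, edgeR adjusted p = 0.00216). It was the 1 member of this group that rose. SLC25A22 shares 504 exon bases, 10.8% of its exon length, with PANO1 on the other strand, which did not pass (log2 fold change -0.28, edgeR adjusted p = 0.715). SLC25A18, the other glutamate importer, had 15 counts over the BARD1 siRNA and 24 over the control siRNA libraries and did not reach the filter. SLC25A44, which imports branched-chain amino acids, fell to 22.8 ± 2.69 CPM with BARD1 siRNA, against 28.3 ± 0.65 CPM with control siRNA (SD, n = 3 each, edgeR adjusted p = 0.00996, and 0.0972 without BARD1 siRNA replicate 2). The ornithine carrier SLC25A15, at a log2 fold change of -0.03, the glycine carrier SLC25A38, at 0.07, the basic amino acid carrier SLC25A29, at 0.20, and the acylcarnitine carrier SLC25A20, at -0.26, did not pass, nor did SLC25A45, at -0.19. SLC25A29 was near the threshold, at an edgeR adjusted p of 0.0595, and passed without control siRNA replicate 2, at 0.0122.

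Of the glutathione importers SLC25A40 fell and SLC25A39 did not pass, and the difference between them was not tested. SLC25A40 (ENSG00000075303, chromosome 7, 87833568 to 87876357, minus strand) measured 19.4, 20.9 and 23.8 CPM with BARD1 siRNA and 33.3, 29.1 and 29.6 CPM with control siRNA (log2 fold change -0.52, SE 0.10, edgeR adjusted p = 3.60e-05). SLC25A39 (ENSG00000013306, chromosome 17, 44319625 to 44324870, minus strand), the more abundant gene at 323 TPM with BARD1 siRNA and 326 TPM with control siRNA, measured 326.5, 327 and 333 CPM with BARD1 siRNA and 307, 343 and 309 CPM with control siRNA. Its groups overlapped and it did not pass (log2 fold change 0.04, SE 0.05, edgeR adjusted p = 0.546). SLC25A40 shares 142 exon bases, 2.79% of its exon length, with DBF4 on the other strand, a gene with a higher mean count that was lower with BARD1 siRNA by 0.77 on the log2 scale, and the part of such reads in its change was not tested.

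Both iron carriers, which bring iron into the matrix for haem and iron-sulphur cluster synthesis, rose. SLC25A37 (ENSG00000147454, chromosome 8, 23528805 to 23575463, plus strand), mitoferrin 1, measured 117, 121 and 117 CPM with BARD1 siRNA and 87.0, 81.3 and 87.0 CPM with control siRNA. The groups were far apart for the spread within them (log2 fold change 0.48, SE 0.06, edgeR adjusted p = 2.70e-09). SLC25A28, mitoferrin 2, measured 17.0, 16.4 and 17.5 CPM with BARD1 siRNA and 12.6, 13.6 and 14.7 CPM with control siRNA (log2 fold change 0.31 with an SE of 0.12, edgeR adjusted p = 0.0370). The call for SLC25A28 was lost under 8 of 16 alternatives, among them leaving out BARD1 siRNA replicate 1, 2 or 3, at 0.0787, 0.0545 and 0.105, and control siRNA replicate 1 or 2, at 0.149 and 0.0678. The summed level of the pair was 83.5, 83.9 and 84.2 TPM with BARD1 siRNA and 64.2, 63.9 and 68.8 TPM with control siRNA. SLC25A37 made up 60.1% ± 1.19 of it with BARD1 siRNA and 57.3% ± 2.08 with control siRNA (SD, n = 3 each), with the groups overlapping.

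Among carriers related to uncoupling proteins, SLC25A30 (ENSG00000174032, chromosome 13, 45393316 to 45418455, minus strand) measured 26.3, 28.7 and 25.4 CPM with BARD1 siRNA and 42.2, 40.9 and 42.0 CPM with control siRNA. That is a 1.56-fold reduction with no overlap (log2 fold change -0.64, SE 0.09, edgeR adjusted p = 4.83e-08). SLC25A30 shares 98 exon bases, 1.44% of its exon length, with TPT1-AS1 on the other strand, which rose (log2 fold change 0.52, edgeR adjusted p = 0.0332). SLC25A14 and SLC25A27, known from brain, did not pass, at log2 fold changes of 0.05 and -0.41. SLC25A46, an outer membrane protein that acts in mitochondrial dynamics, fell to 47.4 ± 4.58 CPM with BARD1 siRNA, against 58.2 ± 2.76 CPM with control siRNA (SD, n = 3 each, edgeR adjusted p = 0.00177). SLC25A43, with no settled substrate, did not pass at 0.20 (edgeR adjusted p = 0.108), and passed without control siRNA replicate 3, at 0.0469. It lies 13.9 kb from SLC25A5, which fell.

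Besides SLC25A18 and SLC25A31, the genes SLC25A21, SLC25A48, SLC25A47, SLC25A2 and SLC25A52 were too low to test. SLC25A21, the oxodicarboxylate carrier, had 7 counts over the BARD1 siRNA and 13 over the control siRNA libraries. The other 4 had at most 1 count over the BARD1 siRNA and 5 over the control siRNA libraries. SLC25A52 was at 0 throughout, a result that up to 3 counts per group would still permit.

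Genes that work with these carriers are read against the same shares of all tested genes, 22.0% higher and 20.3% lower. Of carriers of the same family named outside SLC25A, 2 of 4 tested fell. UCP2, an uncoupling protein family member of the inner membrane, measured 16.4, 12.2 and 14.8 CPM with BARD1 siRNA and 30.8, 30.6 and 34.3 CPM with control siRNA, a 2.20-fold reduction (edgeR adjusted p = 1.60e-12). MTCH2, an outer membrane relative that inserts tail-anchored proteins, fell by 0.36 on the log2 scale, whereas MTCH1 did not pass at -0.02. Of 13 genes for the import route of carriers, 5 fell and 1 rose, with a median of -0.22. The groups overlapped for TIMM10B, the 1 that rose, and for TIMM8B, 1 of the 5 that fell. The chaperone subunit TIMM10 fell by 0.36, the kinase and TIM22 subunit AGK by 0.31 and the carrier receptor TOMM70 by 0.30 on the log2 scale.

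Of 20 other tested mitochondrial transporters and channels, 12 fell and 3 rose, with a median log2 fold change of -0.30. ABCB10, a transporter of the inner membrane needed for haem synthesis, fell to 41.6 ± 4.58 CPM with BARD1 siRNA, against 71.0 ± 5.92 CPM with control siRNA (SD, n = 3 each, edgeR adjusted p = 1.76e-11). The sideroflexin genes SFXN2 and SFXN5 had log2 fold changes of -0.69 and 0.61, and both passed. SFXN2 had only 143 counts over the BARD1 siRNA and 239 over the control siRNA libraries. SFXN1, at 0.30, and SFXN3, at -0.31, passed too, and SFXN4 did not, at 0.09. Of 11 tested enzymes of the metabolite shuttles, 6 fell and 1 rose, with a median of -0.25. The 1 that rose was GOT1, the cytosolic aspartate aminotransferase of the malate-aspartate shuttle, at 40.8 ± 4.37 CPM with BARD1 siRNA and 22.1 ± 1.60 CPM with control siRNA (SD, n = 3 each, log2 fold change 0.88, edgeR adjusted p = 7.35e-11). Its partners GOT2, MDH1 and MDH2 fell by 0.31, 0.49 and 0.25 in log2 fold change, and the glycerol phosphate shuttle genes GPD2 and GPD1L fell by 0.54 and 0.52.

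Of 9 tested regulators of mitochondrial gene expression 3 rose and 1 fell, with a median of -0.03. ESRRA, an estrogen-related receptor, and TFAM, which packages and transcribes mitochondrial DNA, rose by 0.47 and 0.32 on the log2 scale, while GABPA fell by 0.47. NRF1 itself did not pass, at a log2 fold change of -0.10 (SE 0.10, edgeR adjusted p = 0.449).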

How the data were processed

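RNA was measured by poly(A) sequencing in 6 libraries of SKOV3ip1 cells, 3 per group. The authors deposited raw read counts for each gene, not normalized. CASAVA, HISAT2 and the build GRCh38 (hg38) are named in the submitters' processing notes. No source used here states the counting program or its strand setting. The deposited gene lengths, an annotation (other) column, equal the union of exons in GENCODE release 29 for all 58735 rows.

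Counts were tested with edgeR 4.0.16 in R 4.3.3 (robust quasi-likelihood test, TMM factors, group as the only term). The filterByExpr function, with a minimum count of 10 and total of 15, kept 15271 of 29419 genes with any count, and Benjamini-Hochberg adjustment ran over these. Each SE was taken as the size of the log2 fold change over the root of its F statistic. The code was tested on simulated counts in which few genes changed, in random directions. In these data 42.3% of tested genes were called, so that test cannot judge the scaling factors. In all, 11 tested members share exon bases with another tested gene, all on the opposite strand, and in 2 the partner has the higher mean count. The values of 1 tested member and of 1 cell type marker are not reported here. The 40 pseudogene rows of the family held 90 counts in all.

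By rule, values per library were given for the 12 called members with the largest changes and the 6 most abundant, with up to 3 called genes of each related list. Values of other members, and of some related genes and markers, were added after they were seen. Members and lists were chosen with earlier results of these data known. Equal replicate numbers do not pair libraries. The limit of 3 counts per group given for SLC25A52 covers counting error only, and 1 CPM stood for about 17.2 reads. Alternatives were other scaling factors, DESeq2 1.42.0, limma-voom (limma 3.58.1), other filters, protein-coding genes only, no robust estimation, a replicate block and leaving out each library.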

Additional observations from a re-analysis of the deposited data

How the results depend on the processing

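Under 16 alternatives the number of carriers that rose ranged from 5 to 8 and the number that fell from 13 to 15, against 7 and 14 in the main test. Leaving out 1 library gave 5 to 8 higher and 13 to 15 lower, BARD1 log2 fold changes of -2.83 to -2.45, and, for all genes called, 5655 to 6437. Of the 21 called carriers 16 passed under every alternative and 5 (SLC25A6, SLC25A28, SLC25A33, SLC25A35 and SLC25A44) lost the call under at least 1, and no called carrier changed direction. Of the 20 others, 3, SLC25A29 and SLC25A43 among them, passed under at least 1. With upper-quartile factors 5 rose and 15 fell, and among all genes 2815 were higher and 3975 lower, so that 41.5% of the called genes were higher, against 51.9% in the main test. With library size alone it was 42.2%. SLC25A28 did not pass under either, at 0.101 and 0.0935, nor without the filter on low counts, at 0.0804. Equal replicate numbers did not deviate together, with correlations of -0.01, -0.01 and -0.02 for replicates 1, 2 and 3. With the replicate block 7 carriers rose and 15 fell, 6512 genes were called and BARD1 was at -2.59. The cause of the lost calls was not tested.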

Other observations

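SLC25A32, which supplies folate and FAD to mitochondria, was close to the detection limit, with 43 counts over the BARD1 siRNA and 32 over the control siRNA libraries. Its level was 0.809 ± 0.117 TPM with BARD1 siRNA and 0.603 ± 0.323 TPM with control siRNA (SD, n = 3 each). It shares 11.1% of its exon bases with DCAF13 on the other strand, which had a mean of 1295 counts per library. SLC25A2, an ornithine carrier with 1 count over the BARD1 siRNA and 2 over the control siRNA libraries, lies over its whole span of 1417 bases within that of TAF7 on the same strand, with 0 exon bases shared, and TAF7 had a mean of 2952 counts per library.

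The antisense gene SLC25A25-AS1 measured 8.06, 6.16 and 6.49 CPM with BARD1 siRNA and 4.78, 5.64 and 5.49 CPM with control siRNA. All BARD1 siRNA libraries lay above all control siRNA libraries, and it did not pass (edgeR adjusted p = 0.116).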
